A study of Mus musculus with 9 samples.

Results

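Cells sorted from fetal mouse lung as progenitors of alveolar myofibroblasts (MYF) were compared with cells sorted as intermediate mesenchyme (INM). The comparison took the 3 MYF and the 3 INM arrays, 6 of the 9 one-colour Agilent arrays of the study, by the titles of the samples, and was fitted on these 6 arrays alone. It covers every array feature with a gene symbol, which gave 24304 genes, of which 24247 had at least 2 values in each group and were tested. The question, from the labels, is what separates cells on the way to alveolar myofibroblasts from cells described as progenitors of either these or smooth muscle.

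All groups came from mice whose mothers were injected with tamoxifen (0.1 mg per g body weight) at E15.5, and lungs were taken at E18.5, shortly before birth. RFP-positive cells were sorted after staining for Acta2 (smooth muscle actin) and PDGFRalpha, which binds platelet-derived growth factor. MYF cells were labelled low for the actin and high for PDGFRalpha, and INM cells low for both. The promoter that drives the RFP reporter, the strain and the number of cells per sort are not given in the sources used here. Cells were not cultured, the design gives 3 mice per group, and the RNA was amplified before it was labelled with Cy3. The third group of the study, Acta2-high smooth muscle (SMC), was not part of the fit.

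Alveolar myofibroblasts are mesenchymal cells that carry PDGFRalpha, settle at the rims of the forming air sacs and lay down elastin there as the sacs divide. Epithelial cells send PDGF-A and Sonic hedgehog to the mesenchyme beneath them, and the mesenchyme answers with FGF, WNT and BMP ligands. A second fibroblast of the alveolus, the lipofibroblast, stores lipid and lies next to the surfactant-making epithelium.

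The RNA of both sort markers was read first. Pdgfra had log2 signals of 13.64, 13.04 and 13.87 on MYF replicates 1, 2 and 3 and of 8.66, 8.46 and 8.30 on the INM replicates. The groups did not overlap, but this gene was used to sort the cells and its difference of 5.04 ± 0.30 (MYF minus INM, log2 units, SE) is a check of the label only. Acta2 had 14.06, 13.87 and 13.97 in MYF and 13.43, 13.44 and 13.84 in INM, a difference of 0.40 ± 0.25 that did not pass the test (limma, adjusted p = 0.343). Both groups were sorted as low for the actin, and on the Acta2-high SMC arrays Acta2 had 14.77, 15.88 and 14.79, above every MYF and INM array. The first of these values is from SMC replicate 1, which stood apart from all other arrays (r = 0.425 to 0.451 across features).

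The INM arrays also held RNA that is not of mesenchyme. Scgb1a1, the secretory protein of airway club cells, stood at 15.997 to 15.999 on the INM arrays, the top of the scale, and at 7.30, 10.95 and 10.15 in MYF. Foxj1, the factor that switches on motile cilia genes, stood at 11.20, 11.67 and 11.27 in INM and at 3.22, 3.44 and 2.86 in MYF. In a bulk sample, fewer cells of a type and less RNA per cell cannot be told apart, and each difference below is one of mixed RNA.

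Libraries also differed in sex-linked genes, which were chosen after their values were seen. The Y-linked gene Uty had 7.08, 6.93 and 6.28 in MYF and 2.62, 2.00 and 3.39 in INM, and Eif2s3y, also on the Y chromosome, had 9.25, 8.38 and 8.08 in MYF and 4.84, 5.23 and 5.56 in INM. Xist, expressed from the inactive X chromosome, had 6.92 on MYF replicate 1 and 11.85 to 12.42 on the other 5 arrays. Sex-linked RNA therefore differed between the groups and among the MYF arrays, and its part in the other results was not tested. MYF replicate 2 differed from MYF replicates 1 and 3 in cell cycle genes, with the values below. Arrays correlated at r = 0.956 to 0.970 within MYF, 0.957 to 0.966 within INM and 0.899 to 0.923 between the groups, across features, which are not independent replicates.

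Of the 24247 genes tested, 3632 passed limma's test at an adjusted p under 0.05, a share of 15% of all genes. Among them 1590 genes (6.56%) were higher and 2042 (8.42%) were lower in MYF, and these shares are the background for every count of members below. The groups did not overlap in any of the 3632, while over all genes 35% had groups that did not overlap. The lower genes differed by more: the median difference of the genes past the test was 1.49 for the higher genes and -2.58 for the lower ones, against 0.05 over all genes tested. In 400 of the 2042 lower genes the MYF mean lay in the lowest 25% of all feature values (below 3.38), and in 131 of the 1590 higher genes the INM mean did, so that differences of these genes depend on signals near the floor. With each array left out in turn, 1756 of the 3632 genes passed in all 6 fits, and losses are given beside the genes named below. The total was 3742 without MYF replicate 2 and 2122 to 2402 without each of the other arrays, and the higher genes were 1624 and 642 to 850. A fit that also held the 3 SMC arrays gave 263 genes, and one with SMC replicates 2 and 3 but not replicate 1, which stood apart from all other arrays, gave 2575.

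**Figure D1:**
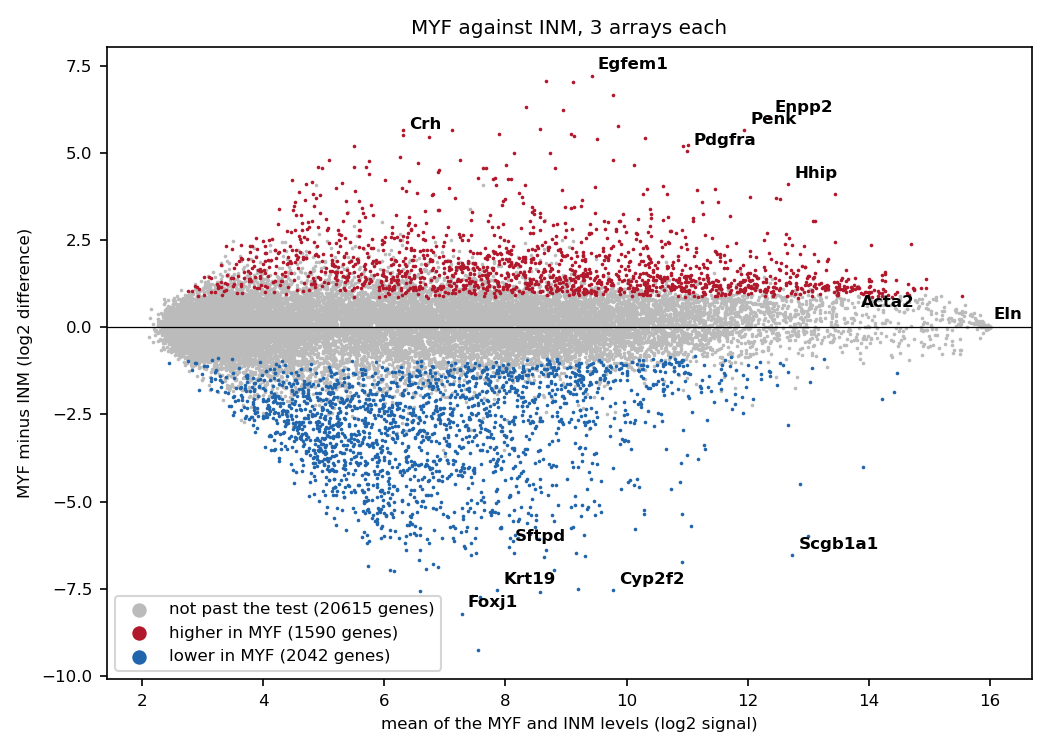
Difference of MYF and INM (log2, vertical) against the mean level of the groups (log2 signal, horizontal) for each gene tested, with 3 arrays per group. The 1590 higher genes (red) are spread over the whole range of levels, and the 2042 lower genes (blue) reach larger differences, as far as Foxj1 and beyond.

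The genes with the most positive differences had roles of several kinds, and some are given here. Egfem1, which encodes a protein with EGF-like domains, had 13.06, 12.92 and 13.10 in MYF and 6.82, 3.07 and 7.58 in INM, a difference of 7.21 ± 1.06 (adjusted p = 0.0047). MYF was even over its 3 arrays and the spread lay in INM, where replicate 2 was near the floor. Cyp2e1, a cytochrome P450 best known from liver, had 12.83, 11.87 and 13.19 in MYF and 5.50, 5.61 and 5.74 in INM (7.01 ± 0.37, adjusted p = 0.000126). Ccdc3, a secreted protein known from fat and endothelium, rose by 6.65 ± 0.36, and Nrxn3, a presynaptic adhesion protein, by 6.31 ± 1.09. The orphan adhesion receptor Adgrg2 rose by 6.22 ± 0.66, the scavenger receptor Scara5, which takes up ferritin, by 5.68 ± 0.28, and Zfp536, a zinc finger repressor known from neurons, by 5.67 ± 0.48. By the rule that named these genes, the lowest MYF array lay above the highest INM array in each.

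Among the 20 most positive genes that the rule named were precursors of secreted peptides, which are shown here with no test of such a theme. Agt, the precursor of angiotensin, had 12.56, 10.43 and 12.58 in MYF and 6.39, 5.70 and 6.82 in INM (5.55 ± 0.62, adjusted p = 0.00138). Penk, the precursor of enkephalins, had 14.82, 14.44 and 15.04 in MYF and 9.18, 9.06 and 9.13 in INM (5.64 ± 0.26). Crh, corticotropin-releasing hormone, had 8.81, 9.49 and 8.92 in MYF and 3.59, 3.49 and 3.60 in INM (5.51 ± 0.27). Both genes were flat within each group and far apart between the groups, though the other probe of Penk differed by 2.16. Kiss1, the precursor of kisspeptin, had 9.90, 8.53 and 9.95 in MYF against 4.65, 3.54 and 3.85 (5.45 ± 0.48), with MYF replicate 2 the lowest of its group. Of the 16 neuropeptide precursors tested, 2 were higher (Penk and Crh) and 1 was lower, Grp, the gastrin-releasing peptide of neuroendocrine cells, at -2.97 ± 0.47. The median of that list was -0.12, so the list did not move as a whole.

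**Figure D2:**
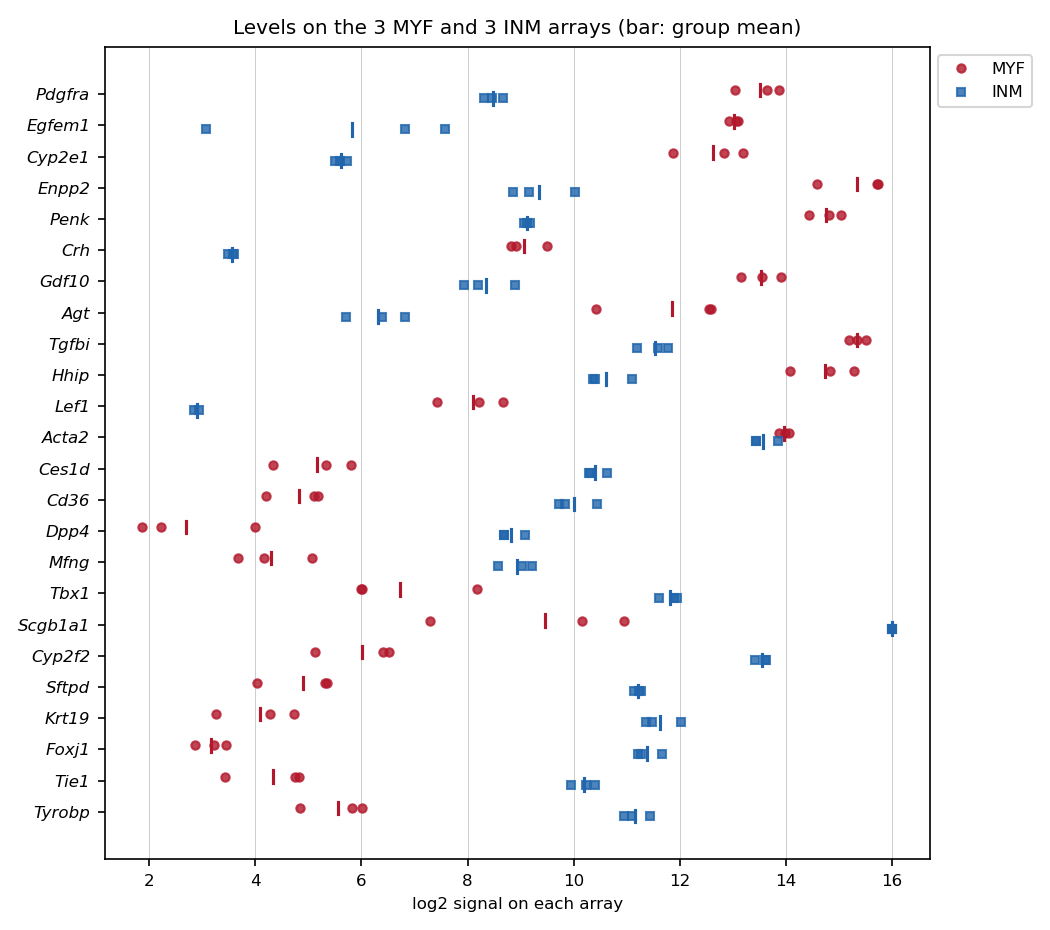
Log2 signal of 24 genes on the 3 MYF arrays (red circles) and the 3 INM arrays (blue squares), with a bar at each group mean. The groups are separate in every gene shown, but barely in Acta2, whose MYF values of 13.87 to 14.06 lie just above the INM values of 13.43 to 13.84.

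The list of alveolar myofibroblast markers held 15 genes, all tested, of which 11 were higher and 0 lower, with a median difference of 3.63. The count and the median include Pdgfra, which the sort used. The list was also chosen with earlier results of these data known, so these values are a description and no independent check of identity. Besides Pdgfra, Egfem1 and Agt, the list holds signalling and matrix genes. Tgfbi, an adhesive matrix protein, had 15.19, 15.33 and 15.51 in MYF and 11.78, 11.20 and 11.59 in INM (3.82 ± 0.26). Lgr6, a receptor of R-spondins, had 10.40, 9.30 and 10.05 against 5.23, 4.92 and 5.88 (4.57 ± 0.39). With any 1 array left out, 11 or 12 of the 15 members were higher, and 1 was lower without MYF replicate 2. Differences of 2 members, Dach2 and Aspn, were negative and did not pass the test. Dach2, a nuclear factor of the dachshund family, had 3.32, 2.76 and 3.66 in MYF and 4.12, 4.51 and 4.00 in INM, low levels that did not overlap (-0.96 ± 0.32, adjusted p = 0.0878). Aspn, asporin, had 7.18, 9.83 and 7.65 in MYF and 9.21, 8.80 and 8.48 in INM, so that the groups overlapped (-0.61 ± 0.66, adjusted p = 0.606).

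PDGF ligands went both ways. The receptor Pdgfrb stood at 11.32, 11.41 and 11.27 in MYF and 11.30, 11.25 and 10.87 in INM and did not pass the test (0.19 ± 0.24, adjusted p = 0.662). The ligand Pdgfa was lower in MYF, at 7.27, 7.46 and 6.90 against 9.13, 9.58 and 9.36 (-2.14 ± 0.27, adjusted p = 0.00232). Pdgfc was higher at 1.75 ± 0.46, a call that held in the fit without MYF replicate 2 and was lost without any other array. The ligands Pdgfb and Pdgfd had 0.91 ± 0.29 and -0.10 ± 0.36 and did not pass the test.

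Of the 13 hedgehog pathway genes tested, 9 were higher in MYF and 0 were lower, with a median of 1.72. Hhip, a membrane protein that binds and limits hedgehog ligands and is induced by them, had 14.83, 14.07 and 15.28 in MYF and 11.10, 10.36 and 10.40 in INM (4.11 ± 0.39, adjusted p = 0.000695). Ptch1, the receptor and a target, had 9.08, 9.23 and 9.28 against 7.12, 6.64 and 7.20 (2.21 ± 0.26). Gli1, the factor that is itself a target, had 9.02, 9.11 and 9.00 against 7.46, 7.54 and 7.82 (1.44 ± 0.24). The groups did not overlap in these 3 genes, as in all genes past the test, and within MYF Hhip varied more than Ptch1 and Gli1. The co-receptors Gas1 and Boc rose by 1.74 ± 0.28 and 1.72 ± 0.26, and Gli3, the main repressor of the pathway, by 1.51 ± 0.26. The co-receptor Cdon, the signal transducer Smo and Gli2 did not pass the test. With 1 array left out, 7 to 10 members were higher.

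Promoters of the hedgehog and WNT genes that moved together were searched for 4 motifs on both strands, in the RefSeq windows (GRCm38.p6) that run from 250 bases before to 50 bases after a start site. The GLI motif GACCACCCA was in 83 of 32851 windows (0.253%) and in none of the 6 higher hedgehog genes that have a window. The cAMP response element TGACGTCA was in 588 windows (1.79%) and, of these 6 genes, in that of Hhip. The TCF/LEF motif CTTTGAT was in 1225 windows (3.73%) and in none of the 6 higher WNT effector genes with a window, and it was in 1 of the 7 higher WNT ligand and receptor genes with a window, Wnt5b. The CArG box, bound by serum response factor, was in 535 windows (1.63%). It was in 2 of the 6 higher WNT effector genes, Lef1 and Tcf7. Of the 7 ligand and receptor genes 1 held it, Lgr4, and of the 6 hedgehog genes 0. A gene was counted if any of its windows held a motif, so these counts and the shares of windows are unlike. Among 9 higher immediate early and stress genes, also searched, the cAMP response element was in 2 and the CArG box in 1. A match of letters is a description and not a site. The windows of Hhip (chr8:80057959-80058258, minus strand), Lef1 (chr3:131112541-131112840, plus strand, 1 of its 4 windows) and Tcf7 (chr11:52282546-52282845, minus strand, 1 of its 2 windows) are shown because these are leading genes of their lists that hold a motif, which is in capitals (the cAMP response element in Hhip, the CArG box in Lef1 and Tcf7).
Hhip: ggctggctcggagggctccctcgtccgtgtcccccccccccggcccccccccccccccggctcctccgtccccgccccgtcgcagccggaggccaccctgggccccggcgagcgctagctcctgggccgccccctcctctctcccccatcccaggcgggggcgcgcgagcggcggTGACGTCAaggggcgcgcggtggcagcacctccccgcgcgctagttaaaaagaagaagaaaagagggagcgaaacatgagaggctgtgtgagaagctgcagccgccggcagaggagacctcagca
Lef1: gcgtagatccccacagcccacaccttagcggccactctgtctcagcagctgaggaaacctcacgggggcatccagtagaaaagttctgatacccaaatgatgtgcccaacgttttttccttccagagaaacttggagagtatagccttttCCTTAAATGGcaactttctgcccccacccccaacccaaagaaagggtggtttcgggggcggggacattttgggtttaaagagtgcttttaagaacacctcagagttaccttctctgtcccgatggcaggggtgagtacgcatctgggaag
Tcf7: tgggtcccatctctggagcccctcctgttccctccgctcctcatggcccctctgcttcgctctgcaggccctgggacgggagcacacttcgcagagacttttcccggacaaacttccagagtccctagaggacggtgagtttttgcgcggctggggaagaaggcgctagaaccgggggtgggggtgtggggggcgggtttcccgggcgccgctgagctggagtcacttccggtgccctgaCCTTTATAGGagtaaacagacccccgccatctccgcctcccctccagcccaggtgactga

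Some WNT genes were higher at each level of the pathway. Of 27 ligands and receptors, 9 were higher and 3 lower (median 0.62), and of 23 effectors, targets and inhibitors, 9 were higher and 2 lower (median 0.78). Among the ligands, Wnt5a, which signals largely without beta-catenin, had 11.96, 11.76 and 11.97 in MYF and 9.36, 9.51 and 9.52 in INM (2.44 ± 0.23), and Wnt5b rose by 2.03 ± 0.34. Ror2, a receptor of Wnt5a, had 9.07, 7.66 and 8.90 against 6.58, 5.75 and 5.51 (2.59 ± 0.46). The R-spondin receptor Lgr4 rose by 2.68 ± 0.34 and the receptor Fzd1 by 2.71 ± 0.34. In the other direction, Fzd6 had 5.36, 5.09 and 3.73 in MYF and 8.32, 8.97 and 9.07 in INM (-4.06 ± 0.47).

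Among the WNT effectors, Lef1, a factor that works with beta-catenin and is its target, had 8.68, 7.42 and 8.21 in MYF and 2.94 and 2.85 on INM replicates 2 and 3. The cell of INM replicate 1 was empty, so that its difference of 5.20 ± 0.42 rests on 3 and 2 arrays, with INM near the floor, and it could not be tested without INM replicate 2 or 3. Tcf7, the related factor, had 10.92, 9.91 and 11.30 against 7.07, 7.01 and 7.72 (3.45 ± 0.42). The target genes Axin2 and Notum, both feedback inhibitors of the pathway, rose by 1.93 ± 0.36 and 2.32 ± 0.36, of which Axin2 lost the call without MYF replicate 1 or 3. Secreted inhibitors went both ways. Wif1, which binds WNT ligands, had 10.996, 10.051 and 10.946 in MYF and 5.31, 4.42 and 5.67 in INM (5.53 ± 0.42), and Dkk3 and Frzb rose by 2.73 ± 0.26 and 2.68 ± 0.39. Dkk2 was lower at -2.62 ± 0.54, a call lost without MYF replicate 1 or 3 or INM replicate 2 or 3. Rnf43, which removes Frizzled receptors, was lower at -3.98 ± 0.37, though its other probe differed by -0.10 only.

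FGF genes went both ways. Fgf18, an FGF of alveolar mesenchyme, had 11.14, 11.47 and 11.66 in MYF and 8.06, 9.48 and 9.15 in INM (2.53 ± 0.40), and Spry1, an inhibitor induced by FGF, rose by 2.71 ± 0.35. Fgf7, a mesenchymal ligand for the epithelium, had 10.31, 8.84 and 10.81 against 8.20, 7.28 and 7.81 (2.22 ± 0.53), a call that held without MYF replicate 2 and was lost without any other array. Fgf1 was lower, at 7.34, 8.20 and 8.09 against 11.63, 12.53 and 12.60 (-4.38 ± 0.38). The receptor Fgfr3 was lower at -1.46 ± 0.24. Etv5, an FGF response gene that is also in the alveolar epithelial list, was lower at -1.25 ± 0.27. Its call was lost without MYF replicate 1 or 3 or INM replicate 2 or 3. Fgf10, the ligand that drives branching, had 6.49, 8.34 and 7.41 against 9.12, 7.75 and 8.81, with groups that overlapped (-1.15 ± 0.55, adjusted p = 0.22). Of 19 FGF genes, 6 were higher and 3 lower, but the count of higher members fell to 3 without MYF replicate 1, INM replicate 1 or INM replicate 3 and to 2 without MYF replicate 3 or INM replicate 2.

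In the TGF-beta and BMP list, 10 of 32 genes were higher and 3 lower (median 0.48). Gdf10, a member of the BMP family, had 13.54, 13.16 and 13.91 in MYF and 8.21, 8.89 and 7.93 in INM (5.19 ± 0.35), though its other probe differed by 0.16 only. Tgfbr3, the co-receptor betaglycan, rose by 3.72 ± 0.39. The ligand Bmp2 had 10.05, 9.91 and 10.77 against 7.47, 6.98 and 7.54 (2.92 ± 0.32), and Bmp4 rose by 1.47 ± 0.37. All 4 genes of the latent TGF-beta binding protein family were higher: Ltbp2 by 2.32 ± 0.27, Ltbp3 by 2.04 ± 0.27, Ltbp4 by 1.57 ± 0.23 and Ltbp1 by 1.34 ± 0.28. Smad7, an inhibitor induced by TGF-beta, rose by 1.57 ± 0.28. Of the 3 lower genes, Bmp3 lost the call without INM replicate 1 or 3, Bmpr1b without INM replicate 2 or 3 and Acvrl1 without any 1 array. The calls of Bmp4 and Ltbp1 were lost without MYF replicate 1 or 3 or INM replicate 1 or 3.

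NOTCH genes that passed the test were all lower. Of 16 tested, 0 were higher and 6 lower (median -1.27), and 3 of the 16 differences were positive. Mfng, a glycosyltransferase that tunes NOTCH receptors, had 5.07, 3.68 and 4.17 in MYF and 9.02, 8.58 and 9.21 in INM (-4.63 ± 0.40). Lfng, of the same family, was lower at -3.38 ± 0.39, the ligand Jag2 at -3.60 ± 0.34 and the endothelial ligand Dll4 at -1.89 ± 0.30. The receptors did not pass the test, with -1.39 for Notch1, -1.30 for Notch3 and 0.77 for Notch2. Without MYF replicate 2 the lower count was 10, and without any other array 4 or 5. Endothelial markers and epithelial genes, many of whose cells use NOTCH ligands, were lower on the same arrays, and their part in the NOTCH counts was not tested.

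IGF and lysophosphatidic acid genes each had a bright secreted member. Igf1 had 12.47, 12.87 and 12.62 in MYF and 9.29, 9.65 and 9.64 in INM (3.13 ± 0.25), and Igfbp3, a binding protein of IGF, had 14.63, 13.43 and 14.90 against 10.54, 10.76 and 10.58 (3.70 ± 0.41). The other 9 IGF genes did not pass the test, among them Igf2 at 0.46 ± 0.29 and the receptor Igf1r at 0.76 ± 0.28. Differences of 5 of the 11 genes were negative. The lowest was that of Igfbp6, a binding protein chosen after its values were seen. It had 6.10, 9.23 and 6.29 in MYF and 9.49, 10.43 and 9.74 in INM (-2.68 ± 0.81, limma, adjusted p = 0.0697). In the fit without MYF replicate 2, 3 IGF genes were lower. Enpp2, autotaxin, which makes lysophosphatidic acid, had 15.72, 14.58 and 15.73 in MYF and 9.16, 8.85 and 10.03 in INM (6.00 ± 0.45), while differences of its 3 probes ranged from 1.19 to 6.00. Its receptor Lpar1 had 8.82, 11.08 and 9.66 against 9.85, 9.56 and 9.40, and the groups overlapped. Lpar3 was lower, at -2.70 ± 0.34.

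Guidance genes and retinoid genes changed in part. Of 27 semaphorins, slits, netrins and their receptors, 7 were higher and 5 lower. Ntn4, a netrin of basement membranes, had 9.04, 7.60 and 8.87 in MYF and 4.67, 4.49 and 3.76 in INM (4.20 ± 0.45), Sema3c rose by 3.41 ± 0.29 and its receptor chain Plxna2 by 3.25 ± 0.26. The slit receptors Robo1 and Robo2 rose by 2.35 ± 0.32 and 2.50 ± 0.43. Sema7a, which is anchored to the membrane, was lower at -3.27 ± 0.33. Among 16 retinoid genes, Aldh1a3, which makes retinoic acid, was higher at 3.99 ± 0.78 with INM values of 5.18, 5.34 and 2.38, a call lost without MYF replicate 1 or 3, and Dhrs3, which turns retinal back to retinol, was lower at -2.84 ± 0.35. Differences of the 3 Aldh1a3 probes ranged from 0.17 to 3.99.

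Matrix genes changed in part, upward more often than downward in the elastic fibre, collagen, proteoglycan and protease lists in the fit of all 6 arrays. Elastic fibre genes had 6 of 18 members higher and 1 lower (median 0.44). Without MYF replicate 2 the counts were 5 higher and 5 lower, and without any other array 4 or 5 higher and 0 lower. Eln, elastin itself, stood at 15.994, 15.986 and 15.997 in MYF and 15.995, 15.971 and 15.813 in INM, at the top of the scale, so that a difference could not be measured. The elastic fibre protein Fbln1 had 14.65, 14.26 and 14.96 against 11.56, 11.87 and 11.35 (3.03 ± 0.29). The microfibril genes Mfap2 and Fbn1 rose by 2.16 ± 0.37 and 1.48 ± 0.27, and the cross-linking enzyme Loxl3 by 2.32 ± 0.34. Fbn2 at 1.19 ± 0.24 and Lox at 1.11 ± 0.26 were also past the test, but Fbn2 lost the call without MYF replicate 1 or 3 or INM replicate 1 or 2, and Lox lost it without any 1 array. The lower member, Emilin2, had 4.87, 8.63 and 6.22 in MYF and 10.46, 9.61 and 10.16 in INM (-3.50 ± 0.87), and it kept the call in the fit without MYF replicate 2 alone.

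Of 24 collagen chains outside basement membranes, 9 were higher and 1 lower (median 0.61), and the 9 stayed at 9 with any 1 array left out. Col6a4, a chain of the collagen VI family, had 12.36, 11.68 and 12.53 in MYF and 6.45, 2.82 and 6.18 in INM (7.04 ± 0.92). The main collagen VI chains Col6a1, Col6a2 and Col6a3 rose by 1.73 ± 0.27, 1.37 ± 0.25 and 2.02 ± 0.26. Col27a1, a fibrillar chain best known from cartilage, rose by 2.76 ± 0.27. The fibrillar chains Col3a1, Col1a2 and Col5a1 rose by 1.52 ± 0.23, 1.36 ± 0.25 and 2.19 ± 0.24. Small leucine-rich proteoglycans had 4 of 11 higher and 0 lower (median 1.54), of which Bgn, biglycan, had 14.13, 14.49 and 14.17 against 13.05, 12.80 and 12.67 (1.42 ± 0.25). That count was 1 without MYF replicate 1, MYF replicate 3 or INM replicate 1 and 2 or 3 without each of the others. In the fit without MYF replicate 2, 1 proteoglycan was lower.

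Basement membrane genes split by chain, with 5 of 20 higher and 6 lower. The laminin chains Lamc1, Lama2 and Lama4, which mesenchymal cells make, rose by 2.44 ± 0.24, 2.39 ± 0.26 and 2.14 ± 0.28, and Lamc3 had 9.04, 8.18 and 8.94 in MYF against 3.84, 5.82 and 5.06 (3.81 ± 0.52). The chains Lama3 and Lamb3 of laminin-332, a laminin of epithelia, were lower, Lama3 at 3.40, 4.74 and 4.87 in MYF against 10.22, 10.93 and 10.44 in INM (-6.19 ± 0.44) and Lamb3 at -4.81 ± 0.34. Differences of the 3 Lamb3 probes ranged from -4.97 to -0.43, and those of the 5 Lama2 probes from 0.07 to 3.75. Integrin chains went both ways, with 2 of 17 higher and 4 lower (median -0.01). Itga9 and Itgav rose by 2.90 ± 0.28 and 2.46 ± 0.29. The epithelial chain Itgb6 was lower at -4.36 ± 0.35, Itga3 at -4.03 ± 0.43 and Itga7 at -3.38 ± 0.27. The epithelial lists were lower on the same arrays, with the values given below, and their part in the laminin and integrin differences was not tested.

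Matrix proteases had 7 of 32 members higher and 0 lower. Adamts14, which trims the amino end of procollagens, had 12.94, 12.21 and 13.07 in MYF and 7.72, 6.54 and 6.66 in INM (5.77 ± 0.41). Mmp2, gelatinase A, had 13.72, 12.95 and 13.67 against 9.60, 9.35 and 9.51 (3.96 ± 0.29), and Adamts15 and Adamts8 rose by 3.95 ± 0.52 and 3.58 ± 0.34. Matricellular genes had 3 of 18 higher and 4 lower. Tnc, tenascin-C, rose by 2.32 ± 0.26. Spp1, osteopontin, had 3.35, 2.58 and 2.65 in MYF and 7.36, 7.27 and 7.74 in INM (-4.60 ± 0.31), and Ccn5 was lower at -3.78 ± 0.39.

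Many transcription factors of lung mesenchyme were higher in MYF. Of 21 T-box and forkhead factors, 10 were higher and 1 lower (median 1.31). Foxf2, a forkhead factor of hedgehog-responsive mesenchyme, had 13.59, 11.90 and 13.90 in MYF and 9.41, 9.00 and 9.21 in INM (3.92 ± 0.52), and Foxf1, its close relative, had 13.54, 12.70 and 13.85 against 11.48, 11.04 and 11.70 (1.96 ± 0.37). The T-box factors that pattern lung mesenchyme were all higher, Tbx5 by 3.58 ± 0.40, Tbx3 by 2.58 ± 0.45, Tbx4 by 2.41 ± 0.38 and Tbx2 by 1.47 ± 0.32. Tbx2 kept the call in the fit without MYF replicate 2 alone, and Foxf1 lost it without MYF replicate 1. In these 6 genes MYF replicate 2 was the lowest of the MYF arrays and, as in all higher genes past the test, above every INM array. Tbx1 was the exception, at 5.99, 6.01 and 8.17 in MYF against 11.62, 11.94 and 11.89 in INM (-5.09 ± 0.59, adjusted p = 0.00154).

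HOX genes, which mark position along the body axis, had 6 of 22 members higher and 0 lower (median 0.97), and 5 of the 6 were in the Hoxb cluster, where 7 genes were tested (median 2.28). Hoxb6 had 10.92, 8.78 and 10.84 in MYF and 6.44, 5.23 and 6.09 in INM (4.26 ± 0.63), Hoxb3 rose by 3.23 ± 0.38 and Hoxb7 by 2.26 ± 0.37. Hoxb5 and Hoxb4 had 2.42 ± 0.46 and 2.28 ± 0.46, calls that both lost without MYF replicate 1 or 3 and Hoxb4 also without INM replicate 2. In the Hoxa cluster 1 of 8 genes passed the test, Hoxa3 at 1.69 ± 0.41 (lost without any array but MYF replicate 2), with a median of 0.97, and in the Hoxc and Hoxd clusters 0 of 4 and 0 of 3 did, with medians of 0.10 and -0.38. The difference between clusters was not tested. The count of 6 was 3 without MYF replicate 1 or 3 and 8 without MYF replicate 2, the array with the lowest levels of the list among the MYF arrays (median 6.01, against 7.20 and 6.90).

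**Figure D3:**
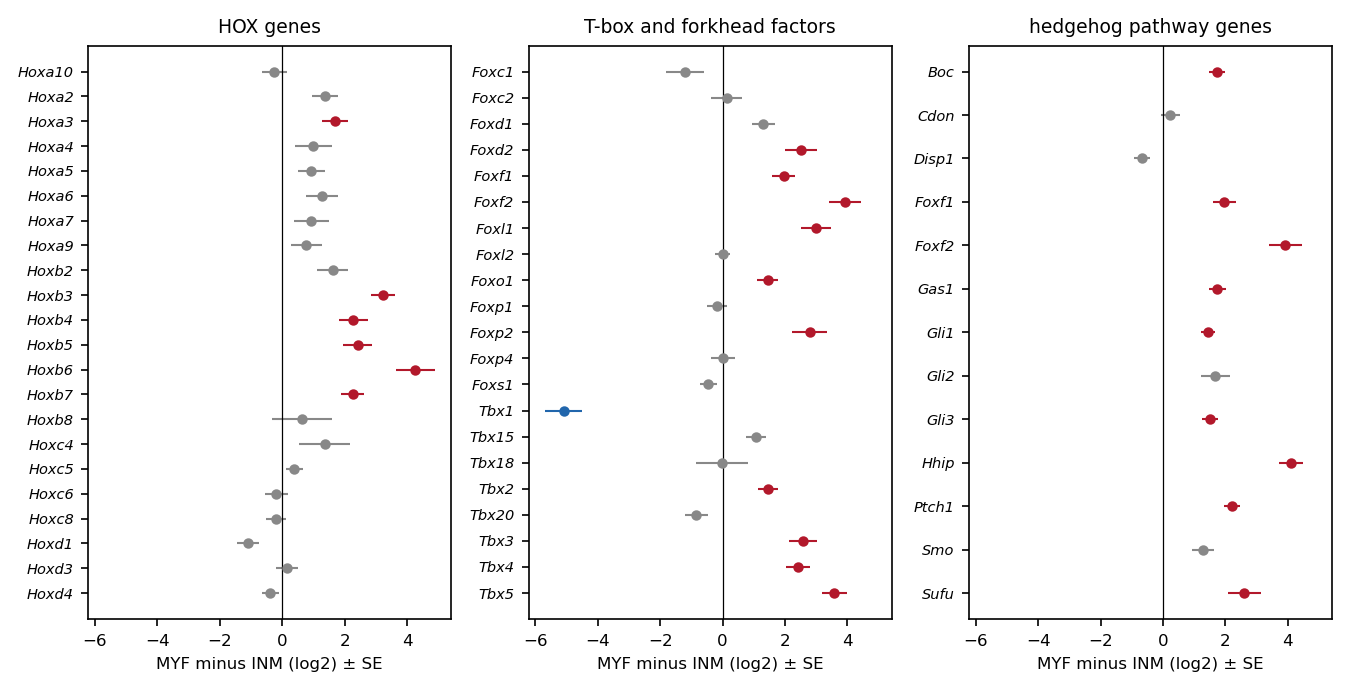
Difference of MYF and INM (log2, point, with its SE as bar, 3 arrays per group) for HOX genes, T-box and forkhead factors and hedgehog pathway genes, with genes past the test in red (higher) or blue (lower). Hoxb3 to Hoxb7 lie at 2.26 to 4.26, and Tbx1 is the only member shown in blue, at -5.09.

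Other mesenchymal transcription factors had 9 of 35 members higher and 1 lower. Zeb2, a repressor of epithelial genes, had 14.17, 13.71 and 14.56 in MYF and 12.32, 11.71 and 12.09 in INM (2.11 ± 0.32), and Sox11 rose by 1.92 ± 0.28. Leaving out MYF replicates 1, 2 and 3 gave 3, 9 and 2 members in place of 9, and leaving out any 1 INM array gave 4 or 5. Lower members numbered 4 without MYF replicate 2 and 0 or 1 without any other array. Tcf21, the factor of lipofibroblast progenitors, stood at 9.36, 10.44 and 8.92 in MYF and 11.07, 10.32 and 10.34 in INM, and the groups overlapped (-1.004 ± 0.441, adjusted p = 0.185).

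Genes of neighbouring mesenchymal fates did not move together. Of 23 genes of lipofibroblasts and matrix fibroblasts, 0 were higher and 12 lower (median -1.69). Ces1d, a lipase, had 5.33, 5.80 and 4.33 in MYF and 10.28, 10.63 and 10.30 in INM (-5.25 ± 0.40), Cd36, a fatty acid transporter, had 4.20, 5.10 and 5.17 against 9.84, 10.44 and 9.72 (-5.17 ± 0.36), and Fabp4, a fatty acid carrier, was lower at -3.60 ± 0.55. With 1 array left out, 9 to 13 were lower. Several of these genes are also expressed by endothelium, macrophages or alveolar epithelium, whose marker lists were lower on the same arrays, and their part was not tested.

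Smooth muscle contractile genes had 8 of 24 members higher and 0 lower, with a median of 0.47. Myocd, the coactivator that drives smooth muscle genes, had 6.73, 5.44 and 6.83 in MYF and 2.54, 3.31 and 4.01 in INM (3.05 ± 0.51), Hspb1, a small heat shock protein, rose by 2.11 ± 0.27, and Pdlim3, a protein of the muscle Z disc, had 3.04 ± 0.60, lost without MYF replicate 1 or 3. Leaving out MYF replicates 1, 2 and 3 gave 2, 5 and 3 members in place of 8, and leaving out INM replicates 1, 2 and 3 gave 4, 4 and 6. Lower members numbered 2 without MYF replicate 2 and 0 without any other array. Cnn1, a late smooth muscle marker chosen after its values were seen, had 7.38, 9.58 and 7.44 in MYF and 10.12, 9.75 and 11.43 in INM (-2.31 ± 0.69, adjusted p = 0.069). Of 14 pericyte markers 4 were higher and 2 lower, and of 14 adventitial markers 2 were higher and 1 lower. The lower one, Dpp4, a peptidase of adventitial fibroblasts that epithelia and lymphocytes also carry, had 2.22, 1.87 and 4.00 in MYF and 9.09, 8.68 and 8.69 in INM (-6.12 ± 0.55). Differences of its 3 probes ranged from -6.12 to 0.02.

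**Figure D4:**
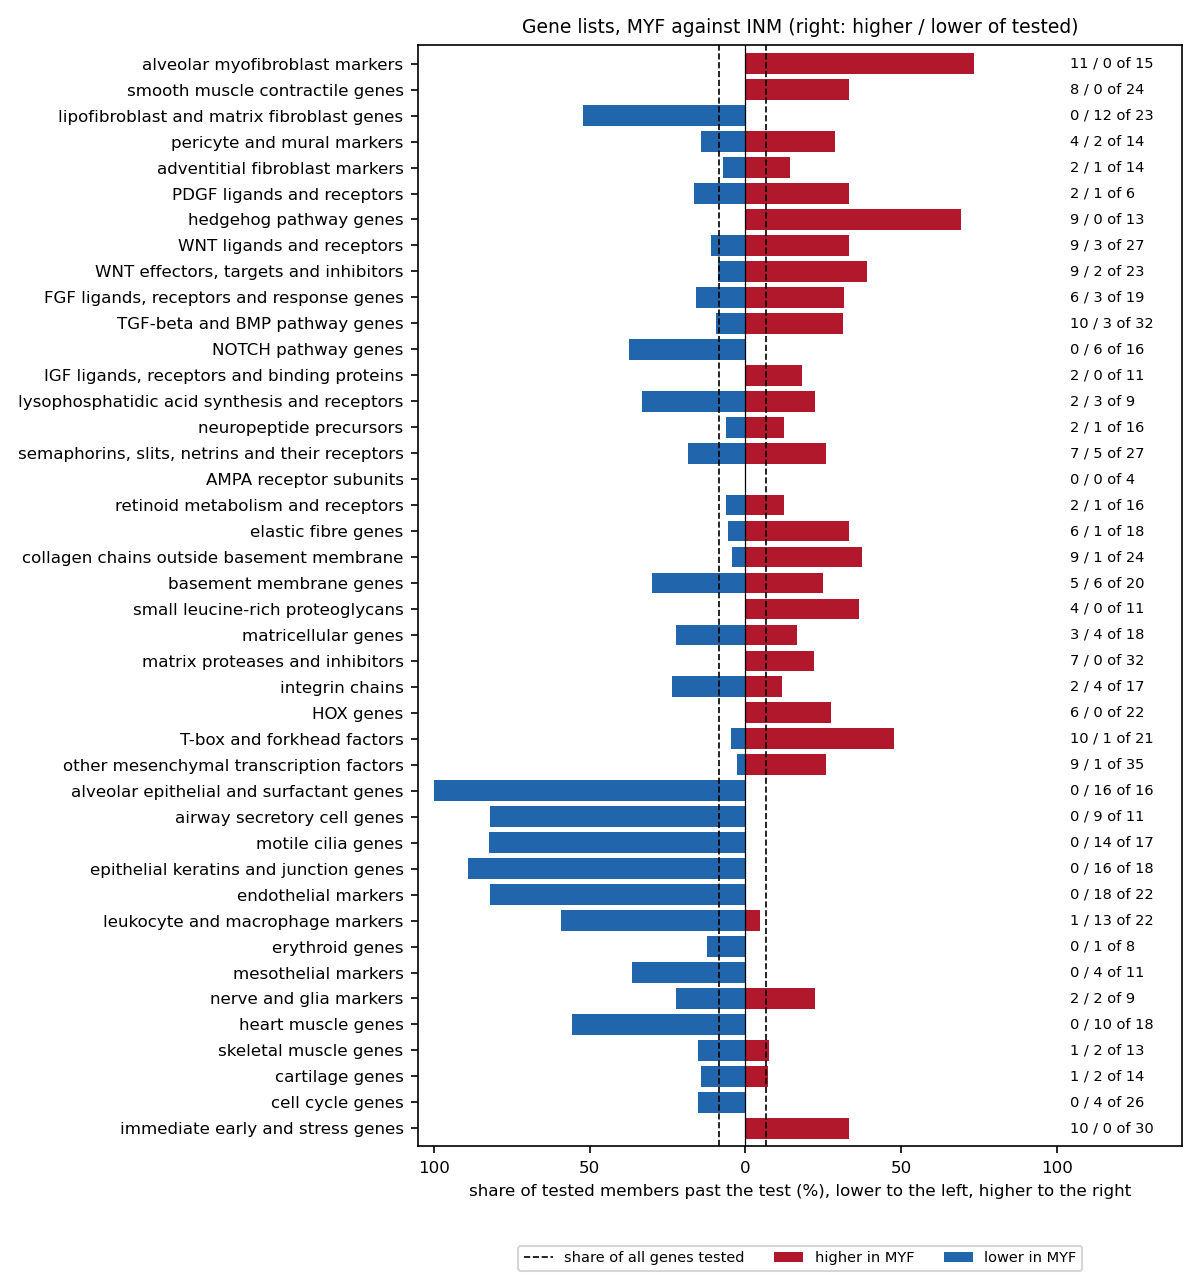
Share of the tested members of each gene list that passed the test (percent, horizontal), higher in MYF to the right in red and lower to the left in blue, with the counts at the right. Dashed lines mark the shares over all genes tested, 6.56% higher and 8.42% lower. The longest bars are those of epithelial and endothelial lists on the lower side and of alveolar myofibroblast and hedgehog genes on the higher side.

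Genes of epithelium and endothelium were lower in MYF nearly throughout, and those of leukocytes in part. In the 4 epithelial lists together, 55 of 62 genes tested were lower and 0 higher, with a median of -4.51. All 16 alveolar epithelial genes were lower, and their summed linear signal was 6108 to 15670 on the MYF arrays and 118000 to 149000 on the INM arrays. Sftpd, surfactant protein D, had 5.36, 4.04 and 5.32 in MYF and 11.13, 11.24 and 11.27 in INM (-6.31 ± 0.39). Of 11 airway secretory genes 9 were lower, and the sums were 1924 to 8552 in MYF and 183800 to 189700 in INM. Cyp2f2, the cytochrome P450 of club cells, had 5.13, 6.40 and 6.52 against 13.42, 13.62 and 13.60 (-7.53 ± 0.40).

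Cilia genes were lower in 14 of 17 members, with sums of 3334 to 3817 in MYF and 25180 to 31510 in INM. The MYF means of Foxj1, Ak7, Mlf1, Cfap206 and Sntn lay in the lowest 25% of all feature values. The largest difference in the whole comparison was in this class of genes, Cfap65, a protein of the axoneme, at 2.51, 3.79 and 2.44 in MYF and 12.36, 12.15 and 12.02 in INM (-9.26 ± 0.40). Keratins and junction genes were lower in 16 of 18 members, with sums of 1472 to 1791 in MYF and 26170 to 35410 in INM, and Krt19 was lower at -7.52 ± 0.42. Levels in MYF were low but not at the floor for all epithelial genes, since the summed alveolar signal of MYF replicate 1 was 15670.

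Endothelial markers were lower in 18 of 22 members (median -3.61), with sums of 1866 to 2747 in MYF and 18260 to 19700 in INM. Tie1, a receptor of vessels, had 4.83, 3.43 and 4.74 against 9.96, 10.24 and 10.39 (-5.86 ± 0.41). Leukocyte markers were lower in 13 of 22 members and higher in 1 (median -2.73). Tyrobp, a signalling adaptor of macrophages, had 5.83, 4.85 and 6.01 against 11.44, 10.95 and 11.10 (-5.60 ± 0.36). Csf1r, the receptor of macrophage growth factor, was the higher one at 1.04 ± 0.24, but its other probe had -2.58, and the call held in only 1 of the 6 fits with an array left out, the one without MYF replicate 2. The sums of this list, 52940 to 62520 in MYF and 61500 to 78160 in INM, overlapped. Its brightest probe was that of Itgam, an integrin chain of myeloid cells named after its values were seen, at 15.45 to 15.69 in MYF and 15.22 to 15.71 in INM. The part of RNA from these cell types in the 2042 lower genes was not tested.

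Heart muscle genes were also lower, 10 of 18 with 0 higher, and their sums were 1956 to 3489 in MYF and 16750 to 27820 in INM. Myl7, the light chain of atrial muscle, had 3.96, 5.64 and 4.34 in MYF and 10.55, 10.02 and 10.62 in INM (-5.75 ± 0.46), and Tnnt2, cardiac troponin T, had 3.36, 6.92 and 3.24 against 10.05, 9.91 and 10.75 (-5.73 ± 0.94). Differences of the 3 Tnnt2 probes ranged from -5.73 to 0.03. The count of 10 was 6 without INM replicate 1 and 7 to 9 without any other array. Of 8 erythroid genes 1 was lower, and of 11 mesothelial markers 4 were lower, among them Msln, mesothelin, at -5.29 ± 0.31. Of 9 nerve and glia genes 2 were higher and 2 lower, of 13 skeletal muscle genes 1 was higher and 2 lower, and of 14 cartilage genes 1 was higher and 2 lower. The lower gene Erbb3, a neuregulin receptor of glia and epithelia, stood at 4.37, 4.05 and 4.45 in MYF and 9.42, 9.61 and 9.92 in INM (-5.36 ± 0.26).

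**Figure D5:**
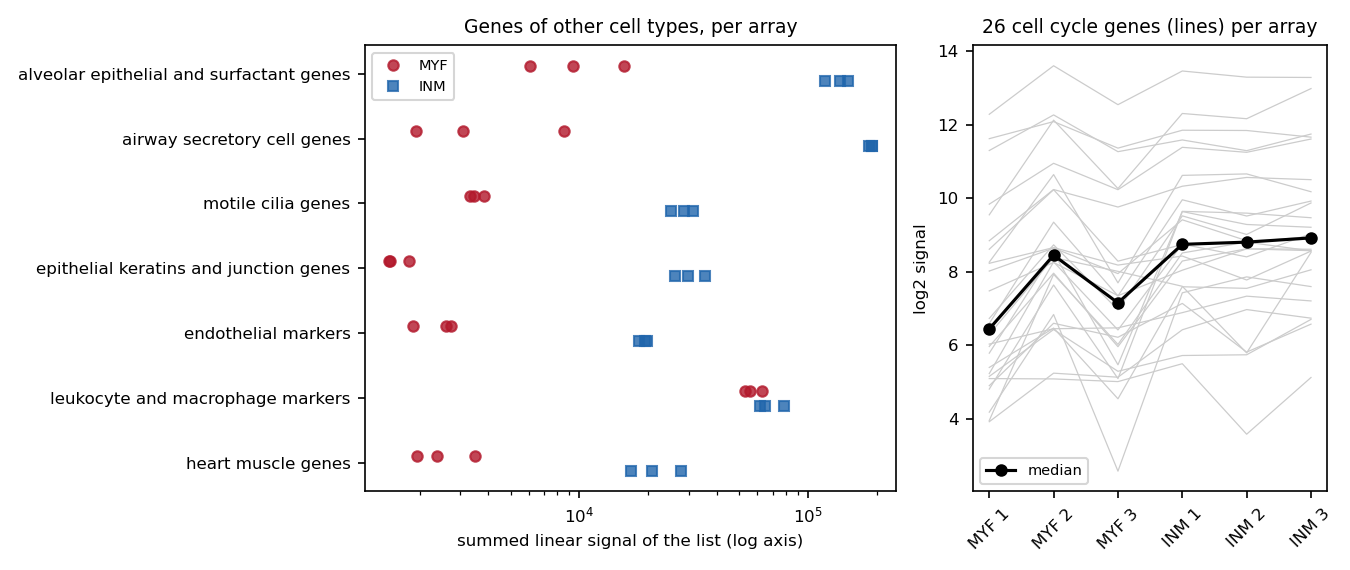
Left, summed linear signal (log axis) of 7 marker lists on each MYF array (circles) and INM array (squares), where the groups are separate for every list but leukocytes. Right, log2 signal of 26 cell cycle genes on each array (grey lines) with the median in black, where MYF replicate 2, at 8.45, lies near the INM medians of 8.74 to 8.92 and MYF replicates 1 and 3 lie at 6.44 and 7.15.

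Cell cycle genes set MYF replicate 2 apart. The median level of the 26 tested genes was 6.44, 8.45 and 7.15 on MYF replicates 1, 2 and 3 and 8.74, 8.80 and 8.92 on the INM arrays. MYF replicate 2 was the highest MYF array in 24 of the 26 genes, against 31.6% of all genes with 3 MYF values. In the comparison of all 6 arrays 4 members were lower and 0 higher (median -0.96), and without MYF replicate 2 the count of lower members was 13. It was 0 without INM replicate 2 and 1 without each of the other arrays. Ccnd1, cyclin D1, which carries cells into S phase, had 4.81, 7.64 and 5.09 in MYF and 9.63, 9.28 and 9.21 in INM (-3.53 ± 0.71), and the mitotic ubiquitin enzyme Ube2c had 5.78, 8.51 and 5.47 against 9.64, 9.59 and 9.47 (-2.98 ± 0.75). Ccnd1 lost the call without MYF replicate 1 or 3 or INM replicate 1 or 2, and Ube2c without any array but MYF replicate 2. The groups did not overlap in these genes, as in all genes past the test, but MYF replicate 2 lay closer to INM than the other MYF arrays did.

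Immediate early and stress genes, many of which are switched on while tissue is dissociated, had 10 of 30 members higher and 0 lower (median 0.60). Nr4a1, an orphan nuclear receptor, had 13.63, 13.16 and 13.64 in MYF and 11.83, 11.54 and 11.55 in INM (1.84 ± 0.26), and Egr3 had 2.17 ± 0.54, a call lost without any 1 array. The count of 10 depended on single arrays: leaving out MYF replicate 2 gave 8, MYF replicate 1 gave 4, and MYF replicate 3 or any 1 INM array gave 1, and it was 2 with the replicate number as a block. Lower members numbered 4 without MYF replicate 2 and 0 without any other array. Levels of the list were high on every array, with medians of 11.92 to 12.19 in MYF and 11.24 to 11.45 in INM.

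Levels on the SMC arrays are given as a description for some of these genes. Egfem1 stood at 5.44 and 5.42, Penk at 7.26 and 8.45 and Wif1 at 4.44 and 1.98 on SMC replicates 2 and 3, all below the MYF arrays. Lgr6, at 9.09 and 6.14, and Hhip, at 12.97 and 11.38, came closer to MYF on SMC replicate 2. Foxj1 stood at 7.73 and 12.34 on these arrays and Cyp2f2 at 9.62 and 13.32, so that in these genes SMC replicate 3 was near the INM level and SMC replicate 2 between the groups. The summed alveolar epithelial signal was 73250 and 62310 on SMC replicates 2 and 3, between the groups on both. SMC replicate 1, which reached r = 0.425 to 0.451 with any other array across features, is given for Acta2 only.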

How the data were processed

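RNA of sorted fetal mouse lung mesenchyme was measured on one-colour Agilent arrays. The deposited values are log2 signals per feature made by the authors. Limma was used to make them per the submitters' processing notes, with no version given. The background correction and the scaling are not given in the sources used here, and signals end near 16. Of 62976 features 43941 carried 1 gene symbol in the platform annotation, 0 carried several and 19035 none, and 1887 symbols were updated through RefSeq records. On the 6 arrays 511 features had an empty cell (831 cells), left empty.

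The probe brightest on average over the 6 arrays stood for its gene. Other probes are given above for part of the named genes only. Among the rest, probe differences ranged from 1.51 to 5.20 in Lef1 and from 1.40 to 4.57 in Lgr6. They ranged from 1.53 to 5.67 in Zfp536 and from 1.70 to 3.70 in Igfbp3. MYF and INM (3 arrays each) were compared in R 4.3.3 with limma 3.58.1 (lmFit, then eBayes), two-sided, with no covariate, at a Benjamini-Hochberg adjusted p under 0.05 over 24247 genes. Values with ± are log2 differences, MYF minus INM, with the SE of that fit. The code of the test was run on simulated data with known changes and independent normal noise. That check did not cover mixed RNA or an array that stands apart. The p-values measure the spread between the arrays of a group, and their number limits the precision.

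Named genes were Pdgfra and Acta2, the 20 most positive and 20 most negative genes past the test (groups not overlapping, brighter group at or above the median level of 5.98, no bare gene model), from each of 42 lists up to 3 members past the test in each direction (2 where none passed), and members of signalling, matrix and transcription factor lists by role. The text gives a part. The comparison, its lists and these rules were chosen with earlier results of these data known. Of 754 list members 732 were tested. A summed signal adds the linear signals of a list on 1 array. Same-numbered arrays of the groups did not deviate together (correlations of deviations -0.02, 0.02 and 0.02), and the labels do not pair them, so numbers were not used as pairs. Alternatives were a replicate block, scaling, a level filter, other probe rules, other variance models, fits with the SMC arrays, a minimum log2 difference of 1 and each array left out.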

Additional observations from a re-analysis of the deposited data

Results flagged for a closer look

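Array features without a gene symbol gave a signal that the comparison of genes does not use. Of 19002 such features tested on the 6 arrays, 1235 passed limma's test (6.5%), 786 higher and 449 lower in MYF, with differences from -6.65 to 6.49 on the log2 scale. Of 43854 features with a symbol 5156 passed (11.8%), 2248 higher and 2908 lower. What the features without a symbol measure is not known here.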

How the results depend on the processing

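The count of 3632 genes (1590 higher, 2042 lower in MYF) moved most with the samples in the fit. With all 9 arrays it was 263 (45 higher, 218 lower), and with 8 arrays, SMC replicate 1 left out, 2575, of which 1046 were higher. With 1 array left out, totals ranged from 2122 to 3742, higher counts from 642 to 1624 and lower counts from 1439 to 2118. The replicate block, on numbers that do not pair the arrays, gave 2725 genes, 967 of them higher, and 658 features without a symbol. Those features numbered 2388 with a variance trend, 30 with 9 arrays, 720 with 8 arrays and 452 to 1103 with 1 array left out. The share of higher genes among those past the test, 43.8%, was 35.5% with the block and 54.6% after leaving out genes below the median level. Scaling moved no array median by more than 7.79e-05. Of 171 named genes, Csf1r alone reversed, to -0.77 with the mean of all probes and -2.58 with the probe of the largest interquartile range. The call was lost in 124 named genes with all 9 arrays, 12 with 8 arrays, 15 with the mean of all probes and 13 with the block. Of the 168 named genes past the test, 42 lost the call in at least 1 fit with an array left out. The causes were not tested. Of 1981 genes past the test with several probes, 538 had a probe of opposite sign. Depth of an array is its signal over background, which these values do not give.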
